A study of Homo sapiens with 4 samples.

Results

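The BCL2 family of cell death regulators was followed by RNA sequencing in SK-MEL-28 and A375, 2 human melanoma cell lines that are known to carry an activated BRAF kinase. The 10 genes described, BCL2, BCL2L1, MCL1, BCL2A1, BCL2L2, BAK1, BCL2L11, PMAIP1, BID and BAD, were taken by gene name from a table of 18175 genes and loci, and all 10 passed the expression minimum for testing. There were 4 groups of 1 library each: SK-MEL-28 treated with siLINC01291, SK-MEL-28 treated with siNC, A375 treated with siLINC01291 and A375 treated with siNC. By their names, siLINC01291 targets LINC01291, a long non-coding RNA, and siNC is the negative control. All cells grew in the same serum-containing medium. The treatment label also names EL, which the labels do not explain. A difference within a line has no replicate check. The 2 lines serve as the replicates of the treatment, and the 2 treatments as those of the line comparison. The p-values therefore rest on the spread between these libraries, estimated for each gene in part from all genes, and not on repeated cultures.

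Proteins of this family decide whether the outer mitochondrial membrane is opened during apoptosis. The survival proteins BCL2, BCL-XL (BCL2L1), MCL1, A1 (BCL2A1, also called BFL1) and BCL-W (BCL2L2) hold the pore formers BAK (BAK1) and BAX in check. The BH3-only proteins BIM (BCL2L11), NOXA (PMAIP1), BID and BAD bind survival proteins through a short helix, the BH3 domain, and BIM and BID can also activate the pore formers directly. In melanocytes and melanoma, BCL2A1 and BCL2 are known targets of the lineage factor MITF, and BIM is known to be held down by ERK signalling.

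The libraries held between 29351240 and 31815336 counts. LINC01291 was at 454 counts in siLINC01291 and 998 in siNC cells of SK-MEL-28, and at 304 and 827 in those of A375, and fell by 1.34 on the log2 scale over both lines (SE 0.13, edgeR adjusted p = 0.0171). All 8 melanocyte markers fixed for a check of the cell type were listed. Their summed level in FPKM (fragments per kilobase of gene, scaled to library size) was 1937 and 1617 in siLINC01291 and siNC cells of SK-MEL-28, against 133 and 92.4 in those of A375. In A375 the pigment genes TYR, DCT, TYRP1 and MLANA lay under 1 FPKM while SOX10 stood at 118 and 80.1. The pigment gene PMEL stood at 2.13 and 1.64 FPKM there, and S100B at 5.69 and 3.47. Of 11 markers of fibroblasts, keratinocytes, leukocytes and endothelium, only KRT14 was listed, at 0.0151 and 0.0451 FPKM in SK-MEL-28 and 7.32 and 6.16 in A375.

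The first comparison asked how the family differs between the lines, with treatment as the second term of the model. SK-MEL-28 carried far more BCL2A1 and more BCL2L11, and less MCL1, BCL2L1 and PMAIP1. Each of these 5 genes differed at least 2-fold between the lines in siLINC01291 cells and again in siNC cells, 2 higher and 3 lower in SK-MEL-28. The same fold was passed upward by 18.5% and downward by 18.4% of expressed genes in siLINC01291 cells, and by 18.2% and 18.7% in siNC cells. Over all 4 libraries, 6 of the 10 genes were higher and 3 lower in SK-MEL-28 by the quasi-likelihood test of edgeR, adjusted after Benjamini and Hochberg over 13501 genes. That test called 36.1% of all genes higher and 36.3% lower, 72.4% in all, against which the 9 calls among 10 are to be read. BCL2A1, one of the 6, entered the test only through SK-MEL-28, where it is high, so its call is no separate support. DESeq2 called 8 of the 10 (58.5% of all genes). The median size of the difference was 0.94 on the log2 scale for the 10 genes and 0.68 for all tested genes.

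**Figure D1:**
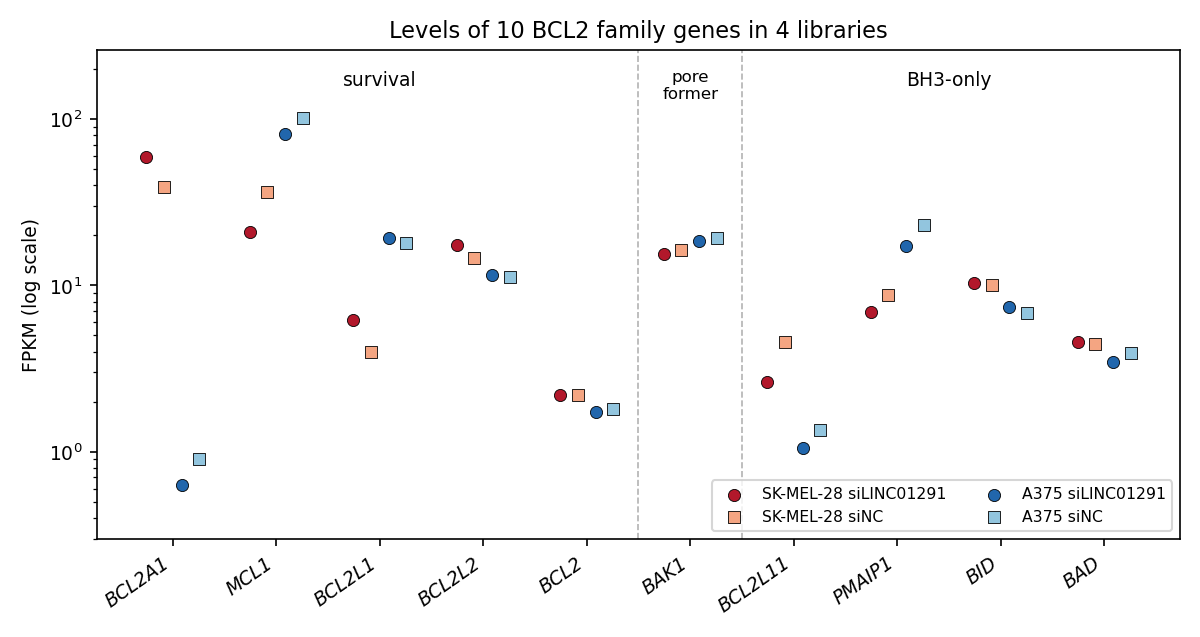
Level of each family gene in each library, in FPKM on a log axis, grouped by role, with 1 point per library and no error bars because each group is 1 library. BCL2A1 sits at 59.5 and 39.3 FPKM in SK-MEL-28 and under 1 in A375, while MCL1 and BCL2L1 sit higher in A375.

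BCL2A1 (ENSG00000140379, GRCh38 chr15:79960889-79971446, minus strand) codes for a short-lived survival protein that binds BIM and NOXA among others. It had 1741 and 1152 counts in siLINC01291 and siNC cells of SK-MEL-28, against 20 and 28 in those of A375. BCL2A1 was 70.7-fold higher in SK-MEL-28 (log2 difference 6.14, SE 0.24, edgeR adjusted p = 3.38e-06). The log2 difference was 6.58 in siLINC01291 cells and 5.49 in siNC cells. BCL2A1 passed the expression minimum of 1 FPKM in 2 libraries only through SK-MEL-28, where it is high. MITF, named here after its values were seen, stood at 75.8 and 60.6 FPKM in siLINC01291 and siNC cells of SK-MEL-28 and at 5.48 and 5.68 in those of A375, and its part in the difference was not tested. Bulk RNA cannot tell fewer expressing cells from less RNA per cell.

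The BCL2A1 promoter is shown because this gene separates the lines most among the 10. The RefSeq window of 250 bases before to 50 after a start (GRCh38.p14, chr15:79971147-79971446, minus strand) reads 5′ to 3′, with the E-box CATGTG in capitals. RefSeq windows were found for 8 of the 10 genes, and MCL1 and BCL2L2 had none.
BCL2A1 promoter: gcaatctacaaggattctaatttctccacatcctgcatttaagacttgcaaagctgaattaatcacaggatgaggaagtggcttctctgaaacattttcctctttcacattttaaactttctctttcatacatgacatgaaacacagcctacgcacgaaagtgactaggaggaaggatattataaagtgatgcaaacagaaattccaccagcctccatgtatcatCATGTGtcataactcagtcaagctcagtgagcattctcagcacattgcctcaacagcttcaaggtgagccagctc
The first base of CATGTG lies at -25 from the RefSeq start of this window. The gene coordinates given above for BCL2A1 have their 5′ end at 79971446, which is the upstream edge of the window. By those coordinates the whole window, E-box included, lies inside the gene. The RefSeq start and that 5′ end thus differ, and which of them these cells use cannot be read from counts per gene. An E-box of either form searched, CATGTG or CACGTG on either strand, was otherwise met only in windows of BID. CATGTG is held by 11.1% and CACGTG by 7.26% of all 35116 promoter windows of this length. The BCL2A1 window also holds TATAAA, which 11.5% of all windows hold on either strand, and lacks GGGCGG, which 45% hold. TATAAA without GGGCGG was also met in a BCL2L1 window (chr20:31723914-31724213). The BCL2 window and a BID window (chr22:17774616-17774915) lack GGGCGG as well. The GC content of the BCL2A1 window is 41%, the lowest of the 14 windows of these genes, which reach 78%.

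MCL1 (ENSG00000143384, GRCh38 chr1:150574551-150579738, minus strand) codes for a survival protein with very fast turnover. It stood at 21.1 and 36.7 FPKM in siLINC01291 and siNC cells of SK-MEL-28, against 81.0 and 102 in those of A375, and was 2.92-fold lower in SK-MEL-28 (log2 difference -1.54, SE 0.12, edgeR adjusted p = 5.32e-05). BCL2L1 (ENSG00000171552, GRCh38 chr20:31664452-31723989, minus strand) stood at 6.15 and 4.00 FPKM in SK-MEL-28, against 19.4 and 18.0 in A375. It was 3.34-fold lower in SK-MEL-28 (log2 difference -1.74, SE 0.15, edgeR adjusted p = 7.54e-05). For both genes the 2 libraries of one line lay apart from the 2 of the other. The share of all genes that do so was not counted, and edgeR called 36.3% of all genes lower in SK-MEL-28.

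BCL2L2 and BCL2 differed less. BCL2L2 stood at 17.5 and 14.6 FPKM in siLINC01291 and siNC cells of SK-MEL-28, against 11.6 and 11.2 in those of A375 (log2 difference 0.66, SE 0.10, edgeR adjusted p = 0.00118). BCL2L2 shares exons with the read-through gene BCL2L2-PABPN1, so its counts are uncertain. BCL2, the founding member of the family, stood at 2.19 FPKM in both SK-MEL-28 libraries, against 1.72 and 1.81 in siLINC01291 and siNC cells of A375 (log2 difference 0.48, SE 0.11, edgeR adjusted p = 0.00682), a call that limma did not make (adjusted p = 0.110). Its 814 and 815 counts in SK-MEL-28 spread over 12.6 kb, the length that the deposited CPM and FPKM imply, which puts BCL2 last of the 10 in SK-MEL-28 and eighth in A375 on the FPKM scale.

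BAK1 alone of the 10 did not pass between the lines in edgeR. It stood at 15.4 and 16.4 FPKM in siLINC01291 and siNC cells of SK-MEL-28, against 18.6 and 19.4 in those of A375 (log2 difference -0.09, SE 0.10, edgeR adjusted p = 0.425), while limma called it lower (adjusted p = 0.0347). The processed pseudogene BAK1P1 is also listed and can share reads with it.

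Of the BH3-only genes, BCL2L11 (ENSG00000153094, GRCh38 chr2:111119378-111168447, plus strand), which codes for BIM, stood at 2.61 and 4.56 FPKM in siLINC01291 and siNC cells of SK-MEL-28, against 1.05 and 1.35 in those of A375. It was 3.27-fold higher in SK-MEL-28 (log2 difference 1.71, SE 0.15, edgeR adjusted p = 9.27e-05). PMAIP1 (ENSG00000141682, GRCh38 chr18:59899948-59904306, plus strand), a p53 and ATF4 target whose product NOXA binds MCL1 and A1, went the other way. It stood at 6.90 and 8.74 FPKM in SK-MEL-28, against 17.3 and 23.0 in A375, and was 2.29-fold lower in SK-MEL-28 (log2 difference -1.20, SE 0.11, edgeR adjusted p = 9.56e-05). BID, which caspase-8 cleaves to link death receptors to mitochondria, stood at 10.3 and 10.1 FPKM in siLINC01291 and siNC cells of SK-MEL-28, against 7.41 and 6.84 in those of A375, and was 1.60-fold higher in SK-MEL-28 (SE of the log2 difference 0.10, edgeR adjusted p = 0.000961). BAD, which growth factor kinases hold inactive by phosphorylation, stood at 4.54 and 4.45 FPKM in SK-MEL-28, against 3.48 and 3.91 in A375. BAD was 1.36-fold higher in SK-MEL-28 (SE 0.15, edgeR adjusted p = 0.0351), a call lost in DESeq2 (adjusted p = 0.302) and limma (adjusted p = 0.0868).

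The order of levels among the 10 genes followed from these differences. On the FPKM scale BCL2A1 ranked first of the 10 in both SK-MEL-28 libraries and last in both A375 libraries, where MCL1 ranked first. Of the family genes outside the 10, BNIP3 stood at 31.5 and 41.5 FPKM in siLINC01291 and siNC cells of SK-MEL-28, above BCL2A1 in siNC cells. BAX stood at 56.8 and 51.9 FPKM in those of A375, below MCL1 and above the rest of the 10. Within the 10, MCL1 was followed in A375 siLINC01291 cells by BCL2L1, BAK1 and PMAIP1 at 19.4, 18.6 and 17.3 FPKM. In A375 siNC cells it was followed by PMAIP1, BAK1 and BCL2L1 at 23.0, 19.4 and 18.0. With 1 library per group the order of such near neighbours has no replicate check. MCL1 and BCL2A1 were apart in SK-MEL-28 siLINC01291 cells, at 21.1 and 59.5 FPKM, and near each other in SK-MEL-28 siNC cells, at 36.7 and 39.3.

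As a share of the summed FPKM of the 10 genes, BCL2A1 took 40.7% in siLINC01291 and 27.9% in siNC cells of SK-MEL-28, against 0.388% and 0.482% in those of A375. MCL1 took 14.4% and 26.0% in SK-MEL-28, against 49.96% and 54.2% in A375. These members differed in opposite directions, while the 5 survival genes together took a like share in all 4 libraries: 72.8% and 68.7% in siLINC01291 and siNC cells of SK-MEL-28, and 70.5% and 71.1% in those of A375. The summed FPKM of the survival genes over that of the 4 BH3-only genes was 4.37 and 3.48 in SK-MEL-28, and 3.91 and 3.82 in A375. These sums leave out the genes of the family outside the 10, such as BAX, and the shares and ratios depend on that choice. They are descriptions of single libraries, and FPKM of RNA says nothing of protein.

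**Figure D2:**
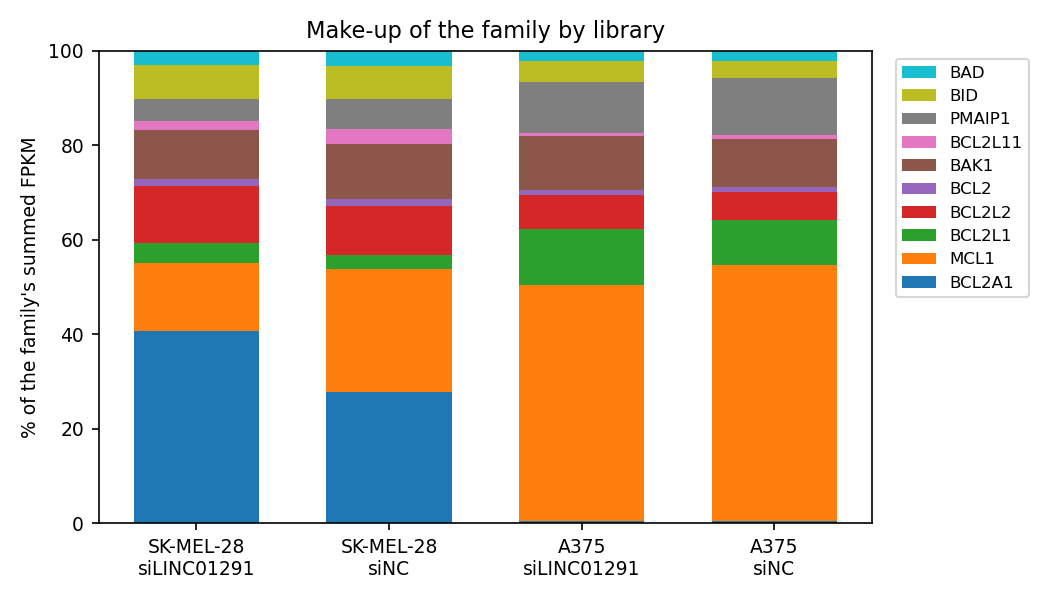
Share of each gene in the family's summed FPKM, in percent, with 1 stacked bar per library. BCL2A1 takes 40.7 and 27.9% in the SK-MEL-28 siLINC01291 and siNC bars and under 1% in A375, where MCL1 takes 49.96 and 54.2%.

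The second comparison asked which family genes shifted with siLINC01291. None of the 10 passed over both lines in edgeR (0 of 10, background 0.896% of 13501 genes). MCL1, BCL2L11 and PMAIP1 had an unadjusted p under 0.05 in edgeR, 3 of 10 against 16.9% of all genes, and all 3 were lower in both lines (background of such genes in the lower direction 8.37%). DESeq2 called MCL1 alone of the 10 (background 2.24%). By sign, 5 genes were lower and 3 higher in both lines, and 2 differed in sign. The median log2 change was -0.08 for the 10 genes and 0.01 for all tested genes, and the median size of the change 0.22 and 0.14.

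Within a line, ratios are given with exact binomial 95% intervals, which cover counting error only. In SK-MEL-28 the interval excluded 1 for 6 of the 10 genes, 3 higher and 3 lower, where 54% of all 12336 expressed genes had such an interval. In A375 it did so for 3 genes, all lower, against 48.7% of 13244 expressed genes; 9 of the 10 members count as expressed there, since BCL2A1 lay under 1 FPKM in both A375 libraries, and its interval included 1. No member differed by 2-fold in either line, which 1.73% of genes did upward and 1.54% downward in SK-MEL-28 and 0.959% and 1.05% in A375. At 1.5-fold, 1 gene was higher (background 6.45%) and 2 were lower (4.99%) in SK-MEL-28, and 0 in A375 (4.07% and 3.83%).

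**Figure D3:**
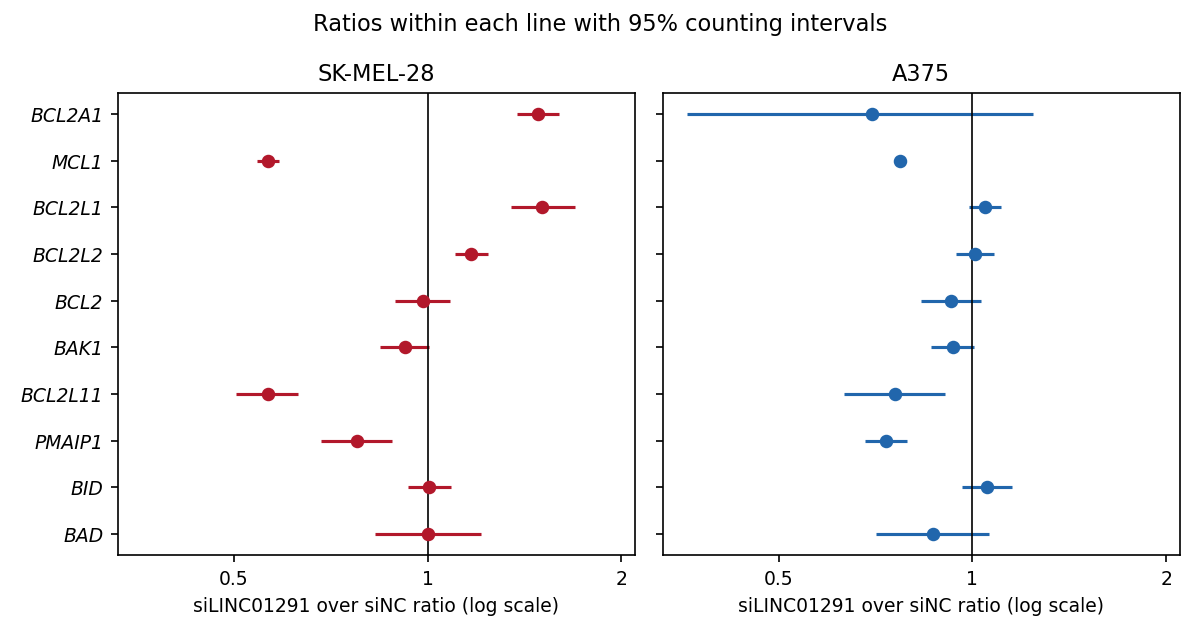
Ratio of siLINC01291 to siNC for each family gene in SK-MEL-28 (left) and A375 (right), on a log2 axis, with exact binomial 95% intervals that cover counting error only. MCL1, BCL2L11 and PMAIP1 lie below 1 in both panels; BCL2A1, BCL2L1 and BCL2L2 lie above 1 with their whole interval in SK-MEL-28 alone.

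Among the survival genes, MCL1 had 3863 counts in siLINC01291 and 6723 in siNC cells of SK-MEL-28, a ratio of 0.565 (interval 0.543 to 0.588). In A375 it had 16095 counts in siLINC01291 and 19697 in siNC cells, a ratio of 0.771 (0.755 to 0.787). MCL1 was thus lower in both lines, with a log2 change of -0.60 over both (SE 0.12, edgeR adjusted p = 0.0879). DESeq2 gave an adjusted p of 0.00435 for MCL1, and over the 6 alternative fits its adjusted p ran between 0.00435 and 1.00.

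BCL2A1 was higher with siLINC01291 in SK-MEL-28, with 1741 counts against 1152 in siNC cells (ratio 1.48, interval 1.38 to 1.60). In A375 its 20 counts in siLINC01291 and 28 in siNC cells give a ratio of 0.697 whose interval of 0.360 to 1.24 includes 1. BCL2L1 had 760 counts in siLINC01291 and 495 in siNC cells of SK-MEL-28 (ratio 1.51, interval 1.35 to 1.69). In A375 it had 2594 and 2340 (ratio 1.05, interval 0.989 to 1.11). Neither passed over both lines (edgeR adjusted p = 0.402 for BCL2A1 and 0.342 for BCL2L1), and whether the lines differ in these ratios was not tested, since no residual degree of freedom remains for it.

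BCL2L2 had a ratio of 1.17 in SK-MEL-28 (interval 1.10 to 1.24) and of 1.01 in A375 (0.944 to 1.08). BCL2 had 814 and 815 counts in siLINC01291 and siNC cells of SK-MEL-28 and 694 and 707 in those of A375, with ratios of 0.982 (0.890 to 1.08) and 0.927 (0.833 to 1.03). Both intervals of BCL2 include 1. BAK1, the pore former, had ratios of 0.920 in SK-MEL-28 and 0.932 in A375, and its change over both lines was -0.11 on the log2 scale (SE 0.10, edgeR adjusted p = 0.635).

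Among the BH3-only genes, BCL2L11 had 512 counts in siLINC01291 and 894 in siNC cells of SK-MEL-28 (ratio 0.564, interval 0.504 to 0.628). In A375 it had 223 and 278 (ratio 0.759, interval 0.632 to 0.906). Its ratios were close to those of MCL1 in both lines, and its log2 change over both was -0.64 (SE 0.15, edgeR adjusted p = 0.114). PMAIP1 had 444 counts in siLINC01291 and 563 in siNC cells of SK-MEL-28 (ratio 0.776, interval 0.683 to 0.879), and 1210 and 1557 in those of A375 (0.734, 0.680 to 0.791). It was lower by a like amount in both lines (log2 change -0.41, SE 0.10, edgeR adjusted p = 0.138). BID and BAD stayed near 1: the ratios were 1.01 in SK-MEL-28 and 1.05 in A375 for BID, and 1.00 and 0.868 for BAD, with intervals that include 1.

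Set beside each other, the FPKM of BCL2L1 over that of BCL2L11 was 2.35 in siLINC01291 and 0.878 in siNC cells of SK-MEL-28, and 18.4 and 13.3 in those of A375. The FPKM of MCL1 over that of PMAIP1, whose product binds MCL1, was 3.06 and 4.20 in SK-MEL-28, and 4.67 and 4.44 in A375. The first ratio was higher with siLINC01291 in both lines, and the second was lower in SK-MEL-28 and higher in A375.

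Other genes of the family came from a list of 13, of which 10 were in the table and 9 were tested. None rose or fell over both lines in edgeR (0 of 9, 2 at an unadjusted p under 0.05). BAX, the second pore former, stood at 20.6 and 19.2 FPKM in siLINC01291 and siNC cells of SK-MEL-28, against 56.8 and 51.9 in those of A375, and was 2.44-fold lower in SK-MEL-28 (edgeR adjusted p = 3.2e-05) with a log2 change of 0.08 with siLINC01291 (SE 0.09, edgeR adjusted p = 0.712). BBC3, which codes for the BH3-only p53 target PUMA, had 151 and 83 counts in siLINC01291 and siNC cells of SK-MEL-28 (ratio 1.77, interval 1.36 to 2.37) and 396 and 338 in those of A375 (1.11, interval 0.954 to 1.28). BOK, a relative of BAX and BAK, had ratios of 1.36 and 1.00 in SK-MEL-28 and A375. The mitochondrial BCL2-like gene BCL2L13 had ratios of 1.21 and 1.20 (edgeR adjusted p = 0.192), the hypoxia-induced mitophagy receptors BNIP3 of 0.746 and 0.878 (adjusted p = 0.190) and BNIP3L of 0.805 and 0.923 (adjusted p = 0.329). BCL2L12 had ratios of 0.968 and 0.930, the BH3-only gene BMF of 1.05 and 1.42, and BIK, with 22 to 33 counts per library, of 0.760 and 1.07. The BH3-only gene HRK, below the expression minimum of the test, had 208 and 104 counts in siLINC01291 and siNC cells of SK-MEL-28 (ratio 1.95, interval 1.55 to 2.51). In those of A375 it had 25 and 42 (0.583, interval 0.328 to 0.943). Its intervals thus lay on opposite sides of 1, and the difference between the lines was not tested.

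Genes that act beside or after the family were taken from fixed lists. Of 17 reported and tested genes of the apoptosome, the caspases and mitochondrial release, 0 rose and 0 fell in edgeR, with CASP9 at an unadjusted p under 0.05. The apoptosome initiator CASP9 was at 1.74 and 3.35 FPKM in siLINC01291 and siNC cells of SK-MEL-28 and 1.60 and 1.69 in those of A375 (log2 change -0.56, SE 0.22, edgeR adjusted p = 0.267). Its ratio was 0.509 in SK-MEL-28 (interval 0.436 to 0.589) and 0.924 in A375 (0.777 to 1.10, which includes 1). DFFB, the nuclease that cuts DNA during apoptosis, was at 5.11 and 4.48 FPKM in SK-MEL-28 and 3.59 and 2.73 in A375 (0.26, SE 0.13, edgeR adjusted p = 0.370). OPA1, which shapes the inner mitochondrial membrane, was at 28.1 and 22.4 FPKM in SK-MEL-28 and 10.9 and 10.1 in A375 (0.18, SE 0.09, edgeR adjusted p = 0.389). DFFB and OPA1 had ratios above 1 in both lines without passing. The interval included 1 for DFFB in SK-MEL-28 (0.992 to 1.26) and for OPA1 in A375 (0.994 to 1.10). It lay above 1 for DFFB in A375 (1.11 to 1.48) and for OPA1 in SK-MEL-28 (1.19 to 1.27).

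The death receptor FAS was the single gene of 7 tested receptors and adapters that passed, and it fell (background of genes called lower 0.674%). It met the expression minimum only through A375, at 1.38 and 3.02 FPKM in siLINC01291 and siNC cells. In those of SK-MEL-28 it lay at 0.122 and 0.274 FPKM. FAS had 20 and 45 counts in siLINC01291 and siNC cells of SK-MEL-28 and 246 and 521 in those of A375, with ratios of 0.459 (interval 0.244 to 0.755) and 0.448 (0.381 to 0.520) and a log2 change of -1.17 (SE 0.17, edgeR adjusted p = 0.0468). The call lies near the threshold: limma gave an adjusted p of 0.281, DESeq2 gave none, and over the alternative fits it ran between 0.0163 and 1.00. The adapters FADD (log2 change 0.32, edgeR adjusted p = 0.293) and TRADD (0.23, adjusted p = 0.509) and the TRAIL receptor TNFRSF10B (-0.19, adjusted p = 0.430) did not pass. Of the 6 tested inhibitors of apoptosis 0 rose and 0 fell, with BIRC3 and BIRC7 at an unadjusted p under 0.05. XIAP (-0.23, adjusted p = 0.301), BIRC6 (0.15, 0.497) and BIRC2 (-0.10, 0.665) had the largest mean ratios among those expressed in all libraries.

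Of 12 tested genes that act on MCL1 or BIM turnover or hold BAD in the cytosol, 0 rose and 0 fell in edgeR, with 2 at an unadjusted p under 0.05. These 2 were the APC/C coactivator CDC20 (-0.44, SE 0.10, edgeR adjusted p = 0.109) and the APC/C ubiquitin-conjugating enzyme UBE2C (-0.39, SE 0.14, edgeR adjusted p = 0.239), and the MCL1 ubiquitin ligase gene FBXW7 stood at 0.18 (edgeR adjusted p = 0.511). DESeq2 called CDC20 (adjusted p = 0.0485) and not UBE2C (adjusted p = 0.374), and limma called neither (adjusted p = 0.184 and 0.317). Of 12 tested transcription factors with a family gene among their known targets, JUN fell (-0.65, SE 0.09, edgeR adjusted p = 0.0468) and 0 rose. JUN had ratios of 0.628 in SK-MEL-28 and 0.645 in A375. DESeq2 called it as well (adjusted p = 0.00359), and limma did not (adjusted p = 0.108). STAT3, which can activate BCL2L1 and MCL1, was higher in both lines without passing in edgeR (0.57, SE 0.09, edgeR adjusted p = 0.0590). DESeq2 called STAT3 (adjusted p = 0.00388) and limma did not (adjusted p = 0.138). The changes of all 12 factors had edgeR adjusted p between 0.0468 and 0.947, and SP1 stood at -0.28 (edgeR adjusted p = 0.203).

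**Figure D4:**
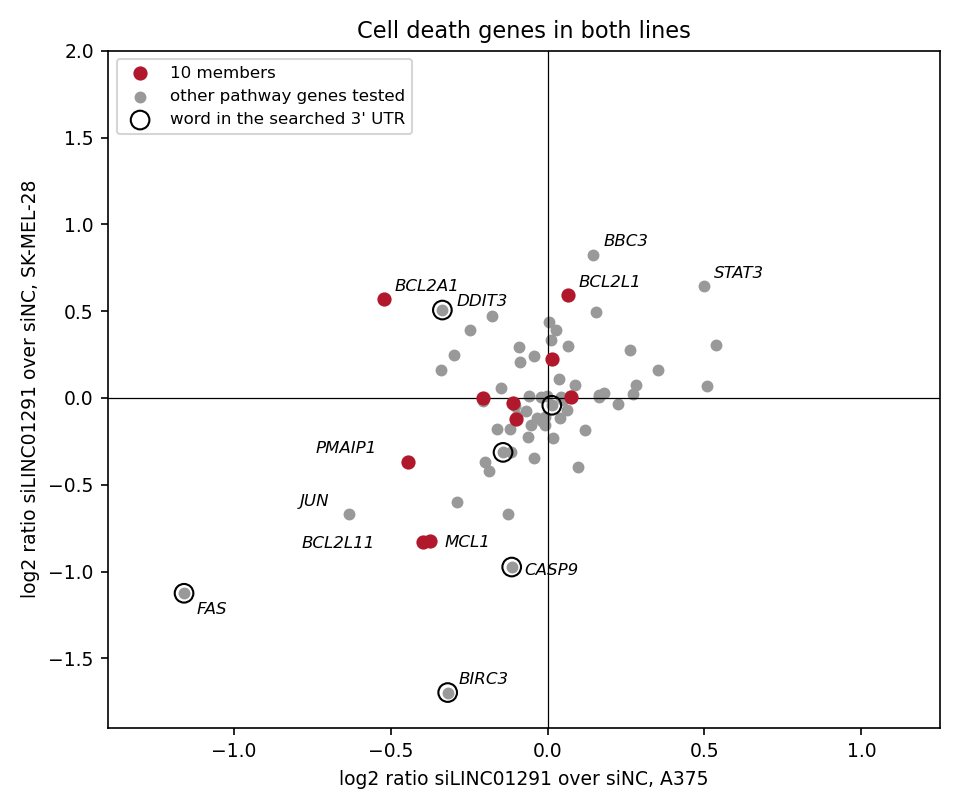
Log2 ratio of siLINC01291 to siNC in A375 (horizontal) and SK-MEL-28 (vertical) for the tested genes of the family and of the cell death and transcription factor lists as reported here, with 1 point per gene and no error bars. MCL1, BCL2L11 and PMAIP1 lie at the lower left, and so do 4 of the 6 circled genes, whose searched 3' UTR holds CTATGAA or TCTATGA; of the other circled genes, DDIT3 lies at the upper left and YWHAZ near 0.

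Short 3' UTR words carried over from an earlier look at genes that fell in these libraries were searched in the family. The words CTATGAA and TCTATGA, on the transcript strand, join in TCTATGAA, which LINC01291 itself holds. At least 1 of the 7-base words is in the principal 3' UTR (GENCODE 29) of 14.5% of 10734 tested genes, and TCTATGAA in 3.61%. None of the 10 members holds a word in its principal 3' UTR. The principal transcript of BCL2L11 ends early, with a 3' UTR of 817 bases, and 8 of its 12 searched transcripts run on to a longer end that holds TCTATGAA. Which end these cells use cannot be read from counts per gene.

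Sites are shown for LINC01291, for the longer end of BCL2L11 and for 4 genes of the cell death and transcription factor lists. Of these 4, FAS and BIRC3 were lower in both lines and DDIT3 was not. CASP9 was lower in both by sign, but its interval in A375 (0.777 to 1.10) includes 1. The sites read 5′ to 3′ on the transcript strand (GRCh38, GENCODE 29), with the word in capitals.
LINC01291, chr2:74931480-74931509, plus strand: ggtgtctggacTCTATGAAgaatcttcatg
BCL2L11, chr2:111166404-111166433, plus strand: aaattagagatTCTATGAAttgtaggagta
CASP9, chr1:15492343-15492372, minus strand: aacagctgtaaTCTATGAAttctaagtgaa
FAS, chr10:89014802-89014831, plus strand: gctaaccccacTCTATGAAtcaatagaaga
BIRC3, chr11:102338801-102338829, plus strand: tggttccagttTCTATGAcctaccttggg
DDIT3, chr12:57516588-57516610, minus strand: taaagtgacttTCTATGAgccaa
BIRC3, an inhibitor of apoptosis named here after its values were seen, had 75 and 243 counts in siLINC01291 and siNC cells of SK-MEL-28 (ratio 0.308, interval 0.231 to 0.394) and 308 and 363 in those of A375 (0.802, interval 0.686 to 0.935).

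Of 60 reported and tested genes of the cell death and transcription factor lists with a searched 3' UTR, 6 hold a word: CASP9, FAS, BIRC3, XIAP, YWHAZ and DDIT3. Their median log2 change was -0.39, against 0.00 in the 54 genes without a word. By the sign of the ratio alone, 4 of the 6 were lower in both lines, against 18 of the 54. DDIT3, which codes for the stress factor CHOP and is likewise named after its values were seen, had ratios of 1.42 in SK-MEL-28 (interval 1.21 to 1.68) and 0.793 in A375 (0.656 to 0.953). JUN, which fell, had a lower log2 change than CASP9. MCL1 and PMAIP1 were lower in both lines and, like JUN, hold no word in any searched transcript. The words were chosen on the ratios of these same libraries, so these counts are a description and no independent support.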

How the data were processed

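RNA sequencing libraries of 4 groups were analysed. Per the labels' protocols, RNA enriched with oligo(dT) beads went to Illumina sequencing, and the reads were then freed of adapters and duplicates with fastp and of ribosomal RNA, and passed through HISAT2 for alignment, StringTie for assembly and HTSeq for counting. Named without a role in the submitters' processing notes are hg19, DESeq2 and edgeR. Counts are whole reads per gene as deposited. Deposited CPM are counts scaled to the library total, deposited FPKM are these divided by gene length, and the deposited TPM were not used. Removing duplicates by sequence can lower counts of abundant short genes, and strand-specific counting is not stated.

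Counts were fitted in edgeR 4.0.16 (R 4.3.3) with TMM factors, cell line and treatment on 13501 genes that reached 1 FPKM in 2 or more libraries. Residual degrees of freedom numbered 1. The pairing comes from the cell line. Calls were made at a Benjamini-Hochberg adjusted p under 0.05, beside DESeq2 1.42.0 and limma 3.58.1 on log2(FPKM + 1). Ratios within a line use a prior count of 2, and intervals are exact binomial ones from the counts. Within a line, expressed means 1 FPKM or more in either of its libraries. Coordinates other than those of the RefSeq windows come from GENCODE 29 on GRCh38. The fit was also run on counts simulated with changes alike in both lines. That setting does not cover genes whose change differs between the lines, and its outcome is not given. Figures used Python 3.11.15 and matplotlib 3.10.9.

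Named were the 10 members, LINC01291, the other family genes in the table and, from each further list, genes that passed and the 3 with the largest mean ratio among those at an FPKM of at least 1 in all libraries. Some list genes are not reported here, and the counts leave them out. Members and lists were chosen with earlier results of these data known.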

Additional observations from a re-analysis of the deposited data

Results flagged for a closer look

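BCL2A1 had a log2 ratio of siLINC01291 to siNC of 0.57 in SK-MEL-28 and of -0.52 in A375, where it rests on 20 and 28 counts. BAD had log2 ratios of 0.00053 in SK-MEL-28 and -0.20 in A375, and both of its counting intervals include a ratio of 1. These 2 of the 10 genes drew attention because their signs were opposite in the lines, and the difference was not tested.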

How the results depend on the processing

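The count of family genes called with siLINC01291 was 0 in edgeR and stayed 0 with relative log expression size factors, with a count of at least 10 in all libraries, in limma and without the cell line block (no replicate block). It was 1, MCL1 in both cases, in DESeq2 and in edgeR with no expression filter. Over all genes, 30 higher and 91 lower calls became 146 and 238 with no filter, 99 and 203 in DESeq2, 1 and 5 in limma, and 0 and 0 without the cell line block; the cause was not tested. Between the lines, 9 family genes were called in edgeR and 8 or 9 in the alternatives. Family genes past the fold within SK-MEL-28 numbered 3 at 1.5-fold and 0 at 2-fold. Of single genes, the line difference changed sign for BIK with no filter (0.0023) and for BCL2L12 in limma (-0.12), neither of which was called. Without A375, the log2 ratios of MCL1 and BCL2L11 were -0.82 and -0.83, and without SK-MEL-28 -0.37 and -0.40, with no test. With 1 library per group and 1 residual degree of freedom, absence of a call does not show that a gene was stable.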
